A study of Mus musculus with 12 samples.

Results

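The genes described here encode splicing factors of IEC4.1 cells, a cultured line of mouse intestinal epithelial cells. They were all genes whose symbol starts with Hnrnp, Srsf, Sf3a or Sf3b, which gave 40 of the 15002 genes measured: 21 hnRNP genes, 10 SR protein genes, 3 genes of the SF3A complex and 6 of the SF3B complex. The 12 libraries made up 4 conditions of 3. A scrambled siRNA was the control (siR_Ctrl), a pool of siRNAs targeted the long noncoding RNA Nostrill (siR_Nostrill), and each was used with and without IFN-γ. The labels give 24 h for every library, and by the study's account transfection came first and IFN-γ was then given at 1 ng/ml for 4 h. The cells of all 4 conditions were of the same unedited line and had all been transfected, and untransfected cells were not analysed here. The level of Nostrill was not analysed here, and neither was the depth of its knockdown.

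Reads counted on genes ranged from 17824306 to 19093204 per library. Of the epithelial marker list, Krt19 was the one gene above 1 FPKM (fragments scaled for transcript length and mapped reads), at 0.91 to 2.76 FPKM, while Krt8, Krt18, Krt7 and Vil1 were at most 0.28 FPKM in any library. Epcam, Cdh1 and Cldn4 were not analysed here. All 6 genes of the fibroblast or mesenchymal list were above 1 FPKM, with a summed level of 379.9 to 674 FPKM, so the labelled cell type was not borne out by its markers. Of the 6 genes of the leukocyte list, the 3 analysed here summed to at most 2.10 FPKM. As a check of the IFN-γ treatment, Irf1, an IFN-γ-induced transcription factor gene, was at 46.97 to 59.8 FPKM in the 6 libraries without IFN-γ and at 535 to 594 FPKM in the 6 with it.

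The hnRNP proteins coat nascent transcripts, and many of them repress the use of nearby splice sites or bind messages for export, translation and decay. SR proteins carry arginine and serine rich tails, bind exonic enhancers and recruit the early spliceosome, so that the 2 families often act against each other on the same exon. SF3A and SF3B are parts of the U2 small nuclear ribonucleoprotein, which recognises the branch point of an intron. Promoters of many genes induced by IFN-γ hold gamma-activated sites (GAS).

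Promoter windows from 250 bases before to 50 bases after the start site were read from RefSeq for GRCm38.p6 and were found for 36 of the 40 genes, in 49 windows. The windows of the 4 genes that passed the test in at least 1 comparison are shown, since their letters can be set beside the IFN-γ and siRNA results. They are Hnrnph2 (chrX:134600929-134601228, plus strand), the most upstream of the 5 windows of Hnrnph1 (chr11:50376740-50377039, plus strand), Hnrnpu (chr1:178337766-178338065, minus strand) and Hnrnpd (chr5:99978889-99979188, minus strand), each 300 bases long and written 5′ to 3′ on the strand of the gene. Capitals mark a match to the GAS letters TTCNNNGAA.
Hnrnph2: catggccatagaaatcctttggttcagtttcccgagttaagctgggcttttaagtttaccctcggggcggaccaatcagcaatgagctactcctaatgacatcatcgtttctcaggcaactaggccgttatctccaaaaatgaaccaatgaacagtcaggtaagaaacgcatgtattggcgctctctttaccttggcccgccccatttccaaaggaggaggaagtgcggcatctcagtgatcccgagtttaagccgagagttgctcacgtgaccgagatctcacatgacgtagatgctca
Hnrnph1: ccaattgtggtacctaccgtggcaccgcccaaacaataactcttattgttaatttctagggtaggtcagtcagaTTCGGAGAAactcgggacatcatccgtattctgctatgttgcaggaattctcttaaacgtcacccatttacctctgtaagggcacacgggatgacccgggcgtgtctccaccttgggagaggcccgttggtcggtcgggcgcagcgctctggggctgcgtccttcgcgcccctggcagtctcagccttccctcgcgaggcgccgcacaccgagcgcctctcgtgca
Hnrnpu: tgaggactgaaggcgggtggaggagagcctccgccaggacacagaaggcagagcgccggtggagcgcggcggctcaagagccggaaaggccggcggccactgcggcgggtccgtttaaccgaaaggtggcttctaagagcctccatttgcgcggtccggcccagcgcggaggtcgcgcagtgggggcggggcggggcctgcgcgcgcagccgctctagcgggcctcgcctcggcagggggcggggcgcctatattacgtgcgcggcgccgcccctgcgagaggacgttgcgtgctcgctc
Hnrnpd: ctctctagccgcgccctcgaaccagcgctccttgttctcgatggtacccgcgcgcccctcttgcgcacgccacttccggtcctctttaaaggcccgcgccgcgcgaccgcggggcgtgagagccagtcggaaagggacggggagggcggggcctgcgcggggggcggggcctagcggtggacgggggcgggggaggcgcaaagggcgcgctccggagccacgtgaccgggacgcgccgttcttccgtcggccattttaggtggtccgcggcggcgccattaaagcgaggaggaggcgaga
The window of Hnrnph1 shown held 1 GAS match, which began 176 bases before its start site. The other windows of Hnrnph1, which are not shown, held none, and neither did those of Hnrnph2, Hnrnpu and Hnrnpd. GAS letters were searched on both strands, which for this palindrome read the same, and were found in 6 of the 49 windows (12.2%) against 8.30% of 32851 windows of all genes. The 6 windows belonged to 5 genes, Hnrnpr, Hnrnpa2b1, Hnrnph1, Sf3b6 and Hnrnpa1l2-ps2. The matching windows of Hnrnpa2b1 overlapped and held the same site, which was counted in each of them. The core of the interferon-stimulated response element, GAAANNGAAA on either strand, was in 0 of the 49 windows against 3.44% of all windows. TATAAA, searched only on the strand of the gene, was in 10.2% of the 49 windows against 8.32% of all windows. These windows were rich in CG dinucleotides, with a median of 27 against 7 in all windows. The count was 14 for Hnrnph2, 24 for Hnrnph1, 41 for Hnrnpu and 45 for Hnrnpd.

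Splicing factor genes were among the abundant transcripts of these cells. Together they took 1.40% to 1.69% of the reads counted on genes in a library. In bulk RNA such a share cannot tell fewer expressing cells from less RNA per cell. Levels are given in FPKM, which is scaled for transcript length and so allows genes to be compared. The hnRNP genes covered the widest range. Hnrnpa1, which encodes a repressor of exon inclusion and shuttling protein, was highest at a mean of 968 FPKM over 12 libraries, with 1048, 1081 and 1082 FPKM in siR_Ctrl, 1035, 987 and 1023 FPKM in siR_Ctrl + IFN-γ, 870.2, 970.2 and 1029 FPKM in siR_Nostrill and 848, 834 and 808 FPKM in siR_Nostrill + IFN-γ. Hnrnpa2b1, encoding its close relative, followed at 902 FPKM, with 957, 932 and 910.1 FPKM in siR_Ctrl, 954, 920.2 and 988 FPKM in siR_Ctrl + IFN-γ, 809, 889 and 965 FPKM in siR_Nostrill and 883, 855 and 759 FPKM in siR_Nostrill + IFN-γ. The ranges of these 2 genes over the libraries overlapped (808 to 1082 and 759 to 988 FPKM), whereas the third, Hnrnpab, lay clearly below both at 376 to 584 FPKM. Hnrnpf and Hnrnpk followed at means of 392 and 343 FPKM. The next in order were Hnrnph1 (253 FPKM) and Hnrnpm (252 FPKM), whose ranges overlapped.

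At the lower end of the hnRNP genes stood Hnrnph3, a short relative of hnRNP H, with 38.6, 39.2 and 40.2 FPKM in siR_Ctrl, 40.6, 40.4 and 34.99 FPKM in siR_Ctrl + IFN-γ, 36.5, 39.6 and 37.1 FPKM in siR_Nostrill and 33.3, 29.04 and 29.3 FPKM in siR_Nostrill + IFN-γ. Hnrnpll, whose protein regulates alternative exons of Ptprc in lymphocytes, had 58.5, 42.9 and 47.3 FPKM in siR_Ctrl, 41.95, 32.6 and 45.96 FPKM in siR_Ctrl + IFN-γ, 35.7, 34.3 and 43.1 FPKM in siR_Nostrill and 44.4, 39.4 and 38.1 FPKM in siR_Nostrill + IFN-γ. The remaining gene, Hnrnpa1l2-ps2, is a processed copy related to Hnrnpa1 and was near 0. It was listed at 0 in 6 libraries and at no more than 0.13 FPKM in the others, and it was the 1 gene of the 40 that failed the filter on low counts, so that 39 were tested. Estimated counts were not whole numbers in at least 1 library for 6 genes (Hnrnpa1 and Hnrnpa1l2-ps2 in 6 libraries, Hnrnpa3 in 12, Hnrnpf in 4, Hnrnpab and Hnrnpd in 1). Part of their reads may have been shared out between similar sequences, which was not tested. No source used here says whether the counting used strand, and 12 of the 40 genes overlap another protein-coding gene in RefSeq, among them Hnrnpd, Hnrnpu and Hnrnph3.

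SR protein genes spanned a narrower range, from 205 to 59.1 FPKM on average. Srsf3, the smallest SR protein and one that also couples splicing to export, was highest, with 199.5, 229.8 and 212 FPKM in siR_Ctrl, 217, 221 and 181 FPKM in siR_Ctrl + IFN-γ, 221, 220.0 and 193 FPKM in siR_Nostrill and 178, 191 and 190.3 FPKM in siR_Nostrill + IFN-γ. Srsf2, whose protein stays in the nucleus, had 217, 202 and 212 FPKM in siR_Ctrl, 199, 167 and 186 FPKM in siR_Ctrl + IFN-γ, 187, 178 and 205 FPKM in siR_Nostrill and 191, 192 and 179 FPKM in siR_Nostrill + IFN-γ. The order of these 2 genes was not settled, since their ranges overlapped. Srsf9 and Srsf5 had means of 160.3 and 156 FPKM and overlapped as well. Srsf5 had 157, 161 and 168 FPKM in siR_Ctrl, 168, 149 and 156 FPKM in siR_Ctrl + IFN-γ, 149.9, 155 and 171 FPKM in siR_Nostrill and 143, 153 and 139 FPKM in siR_Nostrill + IFN-γ. Srsf1, which encodes the founding SR protein SF2/ASF, had 90.4, 75.3 and 78.9 FPKM in siR_Ctrl, 77.7, 63.6 and 76.1 FPKM in siR_Ctrl + IFN-γ, 69.9, 67.4 and 74.5 FPKM in siR_Nostrill and 78.5, 79.2 and 71.2 FPKM in siR_Nostrill + IFN-γ. Its highest library was siR_Ctrl replicate 1. The lowest, Srsf11, had 68.2, 56.5 and 59.3 FPKM in siR_Ctrl, 57.9, 49.97 and 65.3 FPKM in siR_Ctrl + IFN-γ, 54.3, 50.5 and 65.8 FPKM in siR_Nostrill and 61.97, 59.8 and 59.5 FPKM in siR_Nostrill + IFN-γ. Srsf10 (51.1 to 76.3 FPKM), Srsf4 (55.7 to 70.6 FPKM) and Srsf11 (49.97 to 68.2 FPKM) had overlapping ranges and could not be ordered.

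Among the branch point factors, Sf3b2 and Sf3b5 were highest, at means of 193 and 184 FPKM, and Sf3b6, whose protein contacts the branch point adenosine, was the lowest of SF3B at 40.8 FPKM. Sf3b1, the large scaffold subunit that clamps the branch helix, had 98.3, 67.8 and 71.9 FPKM in siR_Ctrl, 72.4, 55.1 and 79.8 FPKM in siR_Ctrl + IFN-γ, 62.3, 58.1 and 71.8 FPKM in siR_Nostrill and 74.3, 75.2 and 67.2 FPKM in siR_Nostrill + IFN-γ. Of the SF3A genes, Sf3a3 was at 91.5 FPKM and Sf3a2 and Sf3a1 were at 33.2 and 28.1 FPKM. Subunits of one complex thus differed in transcript level by several fold.

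**Figure D1:**
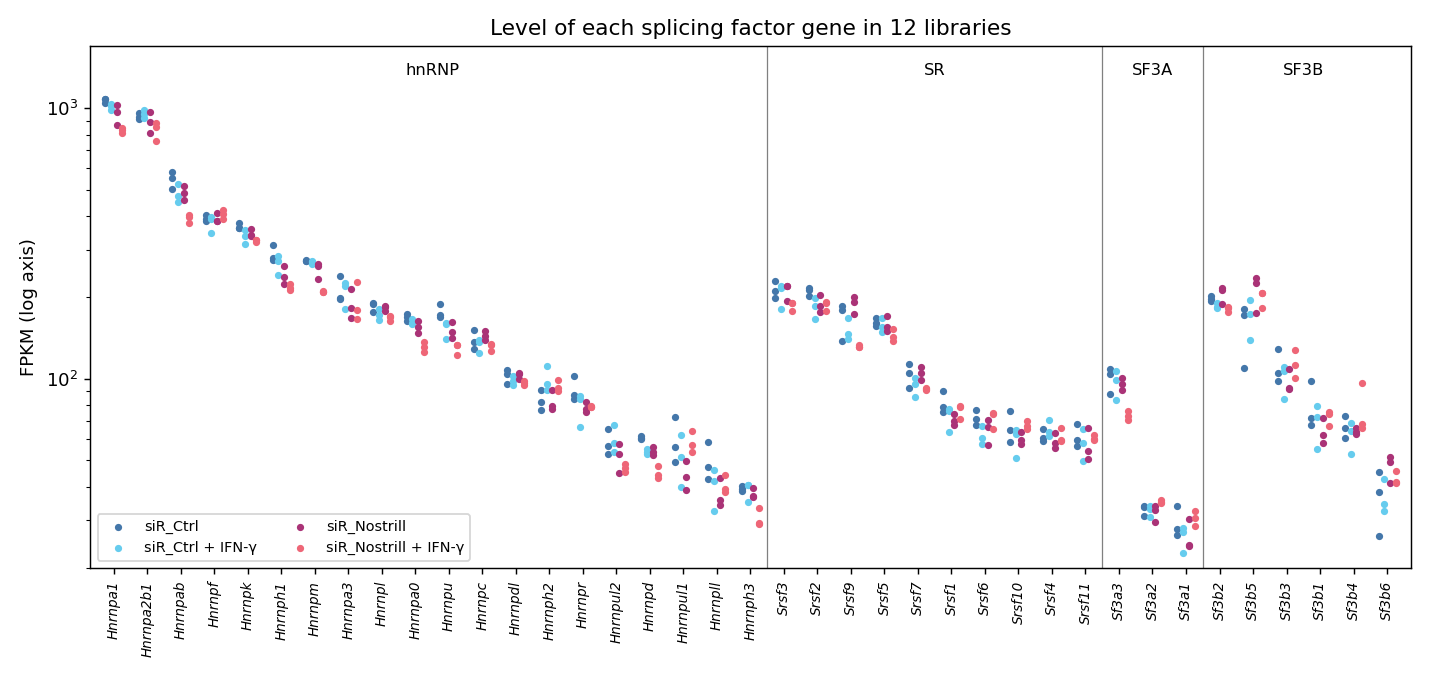
FPKM (log axis) of the 39 splicing factor genes tested, in each of the 12 libraries coloured by condition and ordered by mean within each class. Hnrnpa1 and Hnrnpa2b1 stand highest, at means of 968 and 902 FPKM, and the 4 conditions of most genes lie close together compared with the range between genes.

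The first comparison asked what IFN-γ did to these genes in cells given the control siRNA. Hnrnph2, which encodes an hnRNP H family protein that binds G-rich RNA, rose, and it was the only splicing factor gene called. It went from 91.2, 76.6 and 81.9 FPKM to 96.0, 90.8 and 111 FPKM. The lowest IFN-γ library, at 90.8 FPKM, was just under the highest control library, at 91.2 FPKM, so the groups overlapped in FPKM. Means were 83.2 ± 7.39 and 99.3 ± 10.6 FPKM (SD, n = 3 each). The log2 fold change on TMM-normalized counts was 0.32 (SE, the standard error, 0.0770; adjusted p = 0.0308, quasi-likelihood test of edgeR, Benjamini-Hochberg adjusted). Of all 11900 genes tested, 5.45% were called and 4.71% were called higher, so the 1 of 39 splicing factors (2.56%) was below the share of genes in general. The call was lost in 7 of the 12 fits that leave out 1 library (siR_Ctrl replicate 2 or 3, siR_Ctrl + IFN-γ replicate 2 or 3, siR_Nostrill replicate 2, siR_Nostrill + IFN-γ replicate 2 or 3), where the log2 fold change was 0.27 to 0.34. It was also lost in a fit of only these 6 libraries, with a block for the replicate number and with limma on either FPKM scale. In siR_Nostrill cells Hnrnph2 had 77.5, 79.5 and 91.2 FPKM without and 92.5, 98.9 and 90.3 FPKM with IFN-γ, again overlapping, and its log2 fold change was 0.16 (-0.0044 to 0.33).

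No other splicing factor passed the test with IFN-γ in siR_Ctrl cells. The median log2 fold change was -0.036 over the 39 genes and -0.0085 over all genes, and 22 of the 39 were below 0. The 95% intervals of the 39 genes reached a median of 0.20 to either side on the log2 scale. The next largest positive value was that of Sf3b5, the small SF3B subunit, at 0.20 (95% interval -0.32 to 0.72). Sf3b5 varied widely between libraries, with 109.5, 181 and 173 FPKM in siR_Ctrl, 174, 197 and 139.7 FPKM in siR_Ctrl + IFN-γ, 237, 227 and 175 FPKM in siR_Nostrill and 208, 183 and 208 FPKM in siR_Nostrill + IFN-γ, and without siR_Ctrl replicate 1, the lowest library, its value was -0.023. The largest negative values were those of Hnrnpll at -0.24 (-0.49 to 0.012; -0.13 without siR_Ctrl replicate 1 and -0.14 without siR_Ctrl + IFN-γ replicate 2) and of Srsf6 at -0.15 (-0.35 to 0.049), and with the length trend removed Srsf6 was at -0.022. Srsf6, whose protein binds exonic enhancers, had 76.7, 67.5 and 70.9 FPKM in siR_Ctrl, 66.8, 57.7 and 60.3 FPKM in siR_Ctrl + IFN-γ, 70.8, 57.1 and 66.5 FPKM in siR_Nostrill and 74.1, 75.1 and 65.4 FPKM in siR_Nostrill + IFN-γ. Without overlap in FPKM, 0 of the 39 genes were higher and 7 lower (17.9%), against 7.5% and 10.8% of all genes tested.

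In siR_Nostrill cells Hnrnpd was the 1 splicing factor gene that passed the test with IFN-γ, and it was lower. Hnrnpd encodes AUF1, which binds AU-rich elements and directs messages to decay. It went from 52.4, 53.6 and 55.9 FPKM without to 44.2, 47.5 and 42.9 FPKM with IFN-γ, and the highest library with IFN-γ was below the lowest without. Means were 53.9 ± 1.77 and 44.9 ± 2.39 FPKM (SD, n = 3 each). The log2 fold change was -0.28 (SE 0.0706, adjusted p = 0.0351, edgeR). The call was lost in 8 of the 12 fits that leave out 1 library (siR_Ctrl replicate 3, siR_Ctrl + IFN-γ replicate 1, and each library of both siR_Nostrill groups), with values of -0.32 to -0.26. It was also lost without a filter on low counts and with limma on log2(FPKM + 0.1). With the length trend removed it was lost at -0.55 (adjusted p = 0.109, edgeR). The same gene had a log2 fold change of -0.10 (-0.26 to 0.054, adjusted p = 0.593 from edgeR) in siR_Ctrl cells, where its FPKM of 61.5, 60.2 and 60.5 without and 53.9, 52.9 and 54.9 with IFN-γ did not overlap either. With the length trend removed, its value in siR_Ctrl cells turned to 0.10. Averaged over both siRNAs, Hnrnpd was lower by -0.19 (adjusted p = 0.0328) and Hnrnph2 higher by 0.24 (adjusted p = 0.0135, both edgeR; the call of Hnrnpd held in 3 of 12 such fits, those leaving out replicate 1 of siR_Ctrl, 2 of siR_Ctrl + IFN-γ or 2 of siR_Nostrill + IFN-γ, and that of Hnrnph2 in all 12, but limma on either FPKM scale did not call Hnrnph2), which made 2 of 39 genes called against 9.21% of all genes (6.81% higher and 2.4% lower).

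Over all genes, 6.78% were called for IFN-γ in siR_Nostrill cells and 1.55% were called lower, beside 1 gene of the 39 (2.56%), which was called lower. At an unadjusted p below 0.05, 10 of the 39 were lower (25.6%) and 1 was higher, against 10.2% and 11.7% of all genes. The median log2 fold change was -0.12 over the 39 genes, -0.15 over the hnRNP genes and -0.00056 over all genes. The lowest values belonged to an SR protein gene and an SF3A gene. Srsf9 had 138, 186 and 180.5 FPKM in siR_Ctrl, 147, 169 and 140.2 FPKM in siR_Ctrl + IFN-γ, 192, 201 and 174 FPKM in siR_Nostrill and 131, 131 and 134 FPKM in siR_Nostrill + IFN-γ, with a log2 fold change of -0.54 (SE 0.155, adjusted p = 0.0634, edgeR). Its 3 libraries with siR_Nostrill + IFN-γ lay between 131 and 134 FPKM, below every other library. Sf3a3, which encodes the SF3A subunit that holds the complex to U2, had 88.2, 109 and 104 FPKM in siR_Ctrl, 98.9, 107 and 83.6 FPKM in siR_Ctrl + IFN-γ, 90.8, 96.2 and 101 FPKM in siR_Nostrill and 70.5, 72.98 and 76.2 FPKM in siR_Nostrill + IFN-γ. All 3 of its siR_Nostrill + IFN-γ libraries were below the other 9, and the log2 fold change was -0.41 (adjusted p = 0.107, edgeR). Neither gene was called in that fit. Srsf9 was called lower by DESeq2 (adjusted p = 0.0148), in the fit of the compared groups alone, with the replicate block (adjusted p = 0.0467), by limma on either FPKM scale and with the length trend removed. Sf3a3 was called lower by DESeq2 (adjusted p = 0.0463), in the fit of the compared groups alone and with the length trend removed. With that trend removed the log2 fold changes were smaller, at -0.33 for Srsf9 and -0.30 for Sf3a3.

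Above 0 in the same comparison stood Hnrnpul1, related to hnRNP U, with a log2 fold change of 0.39 (0.072 to 0.70, adjusted p = 0.147, edgeR). It was called higher in the fit of the compared groups alone and with the length trend removed (0.31, adjusted p = 0.0101, edgeR). Hnrnpul1 had 72.2, 49.2 and 55.99 FPKM in siR_Ctrl, 51.6, 39.9 and 61.9 FPKM in siR_Ctrl + IFN-γ, 43.3, 38.9 and 49.6 FPKM in siR_Nostrill and 64.4, 57.0 and 53.7 FPKM in siR_Nostrill + IFN-γ. Its siR_Nostrill libraries were low and all 3 siR_Nostrill + IFN-γ libraries lay above them. Sf3b4, the SF3B subunit next to the branch point, had 73.1, 60.7 and 66.1 FPKM in siR_Ctrl, 64.4, 52.8 and 68.9 FPKM in siR_Ctrl + IFN-γ, 63.7, 62.6 and 65.9 FPKM in siR_Nostrill and 96.2, 68.1 and 65.9 FPKM in siR_Nostrill + IFN-γ, and 1 library with siR_Nostrill + IFN-γ stood far above the others. Its log2 fold change was 0.24 (-0.033 to 0.51), and 0.056 without that library, siR_Nostrill + IFN-γ replicate 1.

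**Figure D2:**
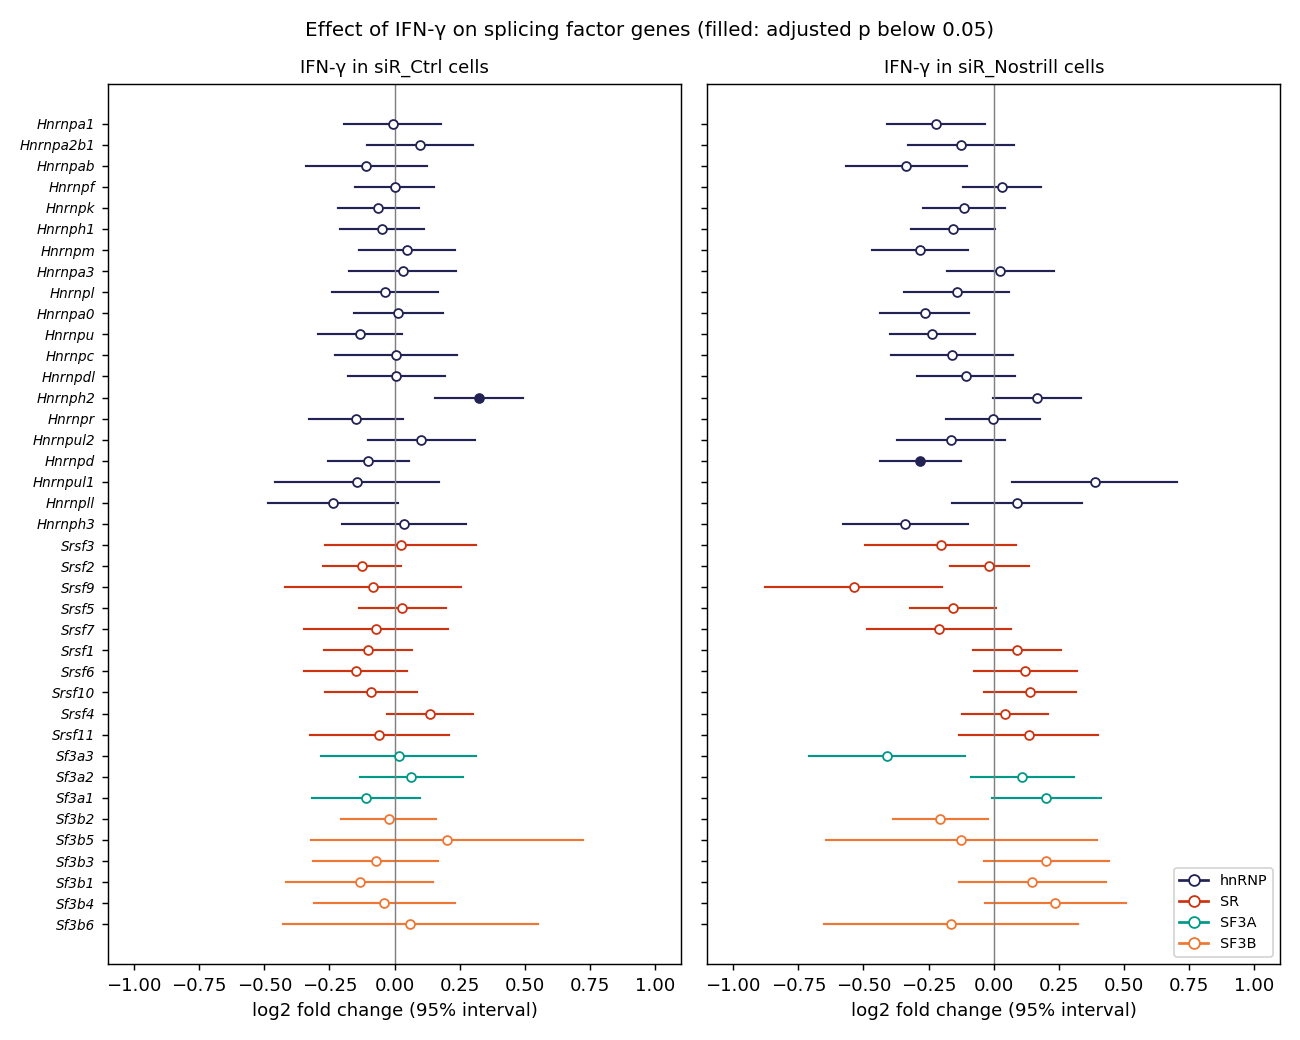
Log2 fold change with IFN-γ of the 39 genes tested (points, with 95% intervals) in siR_Ctrl cells on the left and siR_Nostrill cells on the right, coloured by class and filled where the adjusted p was below 0.05. Hnrnph2 is filled on the left at 0.32 and Hnrnpd on the right at -0.28.

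The question put to siR_Nostrill without IFN-γ was whether the siRNA pool alone shifted these genes. None of the 39 genes passed (0 called by edgeR after adjustment, against 0.218% of all genes). At an unadjusted p below 0.05, 7 were lower (17.9%) and 0 higher, against 7.61% and 6.19% of all genes. DESeq2 called Hnrnph1 and Hnrnpu, both lower (1.27% of all genes), and limma on log2(FPKM + 1) called 0 of the 39 (0.189% of its 11095 genes). The 7 genes were Hnrnpul1, Hnrnpll, Sf3b1, Hnrnph1, Hnrnpu, Hnrnpr and Srsf1. Hnrnph1, whose protein binds G runs, went from 312, 280.4 and 276 FPKM in siR_Ctrl to 224, 238 and 261 FPKM in siR_Nostrill cells, with no overlap. Its log2 fold change was -0.23 (SE 0.0733, adjusted p = 0.253, edgeR). Hnrnpu encodes SAF-A, a nuclear matrix protein that binds RNA and chromatin, and went from 189.6, 169 and 172 FPKM to 141, 149 and 162 FPKM, also with no overlap. Its log2 fold change was -0.20 (adjusted p = 0.302, edgeR). With the length trend removed, Hnrnpu was at 0.018, Sf3b1 at 0.0048 and Srsf1 at 0.056, while Hnrnpul1, Hnrnpll, Hnrnph1 and Hnrnpr stayed below 0. Over the hnRNP genes, 8 of 20 were lower without overlap in FPKM and 0 were higher. Of all 11900 genes tested, 826 (6.94%) were lower and 1208 were higher in that way.

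The lowest fold changes in that comparison were those of Hnrnpul1 at -0.41 (-0.73 to -0.094) and Hnrnpll at -0.37 (-0.62 to -0.12). Both had their highest value in siR_Ctrl replicate 1, and without that library they were -0.27 and -0.26. The highest fold changes were those of the small subunits Sf3b5 at 0.50 (-0.018 to 1.03) and Sf3b6 at 0.40 (-0.093 to 0.88). Sf3b6 had 26.2, 45.4 and 38.3 FPKM in siR_Ctrl, 34.4, 42.6 and 32.6 FPKM in siR_Ctrl + IFN-γ, 51.3, 49.4 and 41.1 FPKM in siR_Nostrill and 41.2, 41.7 and 45.9 FPKM in siR_Nostrill + IFN-γ, and again siR_Ctrl replicate 1 was the lowest library. Without it the values were 0.28 for Sf3b5 and 0.18 for Sf3b6, without siR_Ctrl replicate 2 that of Sf3b6 was 0.63, and with the length trend removed they were 0.19 and 0.17. Within the siR_Ctrl group, that replicate deviated from the mean with effective gene length more strongly than any other library did in its own group, with a Spearman correlation of 0.845 across genes, which are not independent replicates. The removal of the length trend, described below, was applied to every library and so does not single this one out. The part of this library in these differences was not tested beyond the fits without it.

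With IFN-γ present, a larger group of hnRNP genes lay below its siR_Ctrl level in siR_Nostrill cells, although none passed the adjusted threshold in edgeR. The count was 0 of 39 (0.429% of all genes were called), with 11 lower (28.2%) and 0 higher at an unadjusted p below 0.05, against 7.67% and 6.87% of all genes. DESeq2's Wald test called 10, all lower, where it called 2.74% of all genes lower, and limma on log2(FPKM + 1) called 1, Hnrnpm (0.883% of the 11095 genes in that fit). The 11 genes were Hnrnpm, Hnrnpa0, Hnrnpd, Hnrnph1, Hnrnpul2, Hnrnpa1, Hnrnpu, Hnrnph3, Hnrnpab, Sf3a3 and Srsf5, so 9 of them were hnRNP genes. The median log2 fold change was -0.17 over the 20 hnRNP genes, -0.054 over the 10 SR genes and 0.14 over the 6 SF3B genes, against -0.0026 over all genes. With the length trend removed these medians were -0.23, -0.14, 0.11 and -0.068. Of the 20 hnRNP genes, 18 were below 0.

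Hnrnpm, which encodes a repressor and activator of alternative exons, came nearest to the threshold. It had 270.4, 273 and 266 FPKM in siR_Ctrl + IFN-γ and 210.4, 212 and 210.0 FPKM in siR_Nostrill + IFN-γ cells. Both groups were tight and lay far apart. Means were 269.8 ± 3.42 and 211 ± 0.877 FPKM (SD, n = 3 each), and the log2 fold change was -0.41 (SE 0.0844, adjusted p = 0.0618, edgeR). Without IFN-γ its groups were 272, 272 and 276 and 234, 266 and 262 FPKM, a log2 fold change of -0.081 (-0.27 to 0.10). Hnrnpa0, whose protein binds AU-rich elements, had 159, 161 and 167 FPKM and 137, 126 and 131 FPKM, with a log2 fold change of -0.37 (adjusted p = 0.0688, edgeR). Hnrnpul2 had 57.8, 53.8 and 67.5 FPKM and 46.9, 48.4 and 45.1 FPKM, with a log2 fold change of -0.41 (adjusted p = 0.0773, edgeR). In each of these 3 genes every siR_Nostrill + IFN-γ library was below every siR_Ctrl + IFN-γ library.

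The most abundant hnRNP genes also had negative values. Hnrnpa1 had a log2 fold change of -0.35 (-0.54 to -0.16, adjusted p = 0.0902, edgeR), from 1015 ± 25.1 to 830.0 ± 19.9 FPKM (SD, n = 3 each). Hnrnpab, a relative of Hnrnpd, had 503, 584 and 553 FPKM in siR_Ctrl, 526, 474 and 452 FPKM in siR_Ctrl + IFN-γ, 487, 459 and 516 FPKM in siR_Nostrill and 376, 403 and 395 FPKM in siR_Nostrill + IFN-γ. Its siR_Nostrill + IFN-γ libraries were the lowest 3 of the 12, and the log2 fold change was -0.37 (adjusted p = 0.130, edgeR). Hnrnpa2b1 had a log2 fold change of -0.20 (-0.40 to 0.0083). Hnrnph3 had -0.42 (adjusted p = 0.108, edgeR) and Sf3a3 had -0.46 (adjusted p = 0.138, edgeR), the lowest value of the 39 genes. At the other end stood Sf3b5 and Sf3b4, and the highest value of the 39 genes was 0.25. Over the fits that leave out 1 library, Sf3b5 ranged from 0.021 to 0.37 and Sf3b4 from 0.073 to 0.33.

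Some abundant factors did not separate. Hnrnpk, a poly(C)-binding protein gene, had 377, 363 and 360.4 FPKM in siR_Ctrl, 354, 316 and 337 FPKM in siR_Ctrl + IFN-γ, 342, 338 and 358 FPKM in siR_Nostrill and 325, 325 and 319.5 FPKM in siR_Nostrill + IFN-γ, with a log2 fold change of -0.11 (-0.27 to 0.044). Hnrnpc, whose protein binds uridine tracts and keeps Alu-like sequences out of exons, had 129.5, 152 and 137 FPKM in siR_Ctrl, 139, 137 and 125 FPKM in siR_Ctrl + IFN-γ, 144, 151 and 139.8 FPKM in siR_Nostrill and 133, 134 and 127 FPKM in siR_Nostrill + IFN-γ, with -0.083 (-0.32 to 0.15) on the log2 scale. Hnrnpf had 0.054 (-0.097 to 0.21). For Hnrnpk, Hnrnpc and Hnrnpf these intervals exclude a fall as large as that fitted for Hnrnpm. With the length trend removed, Hnrnpk was at -0.18 (-0.34 to -0.027, adjusted p = 0.123, edgeR).

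Without overlap in FPKM, 12 of the 39 genes lay lower with siR_Nostrill under IFN-γ and 3 lay higher, against 8.29% and 14.6% of all genes tested. Of the 12, 10 were hnRNP genes. The comparisons of the siRNAs with and without IFN-γ share no library, so their directions can be counted together. Both fold changes were below 0 for 13 of the 20 hnRNP genes (65%), 2 of the 10 SR genes, 1 of the 3 SF3A genes and 1 of the 6 SF3B genes, and for 22.6% of all genes. The SR count depended on the scaling. With the length trend removed, Srsf2, Srsf4, Srsf5, Srsf9 and Srsf11 were below 0 in both. In that fit 7427 of all 11900 genes were below 0 with IFN-γ and 5165 without it. The share of all genes below 0 in both was not counted there.

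**Figure D3:**
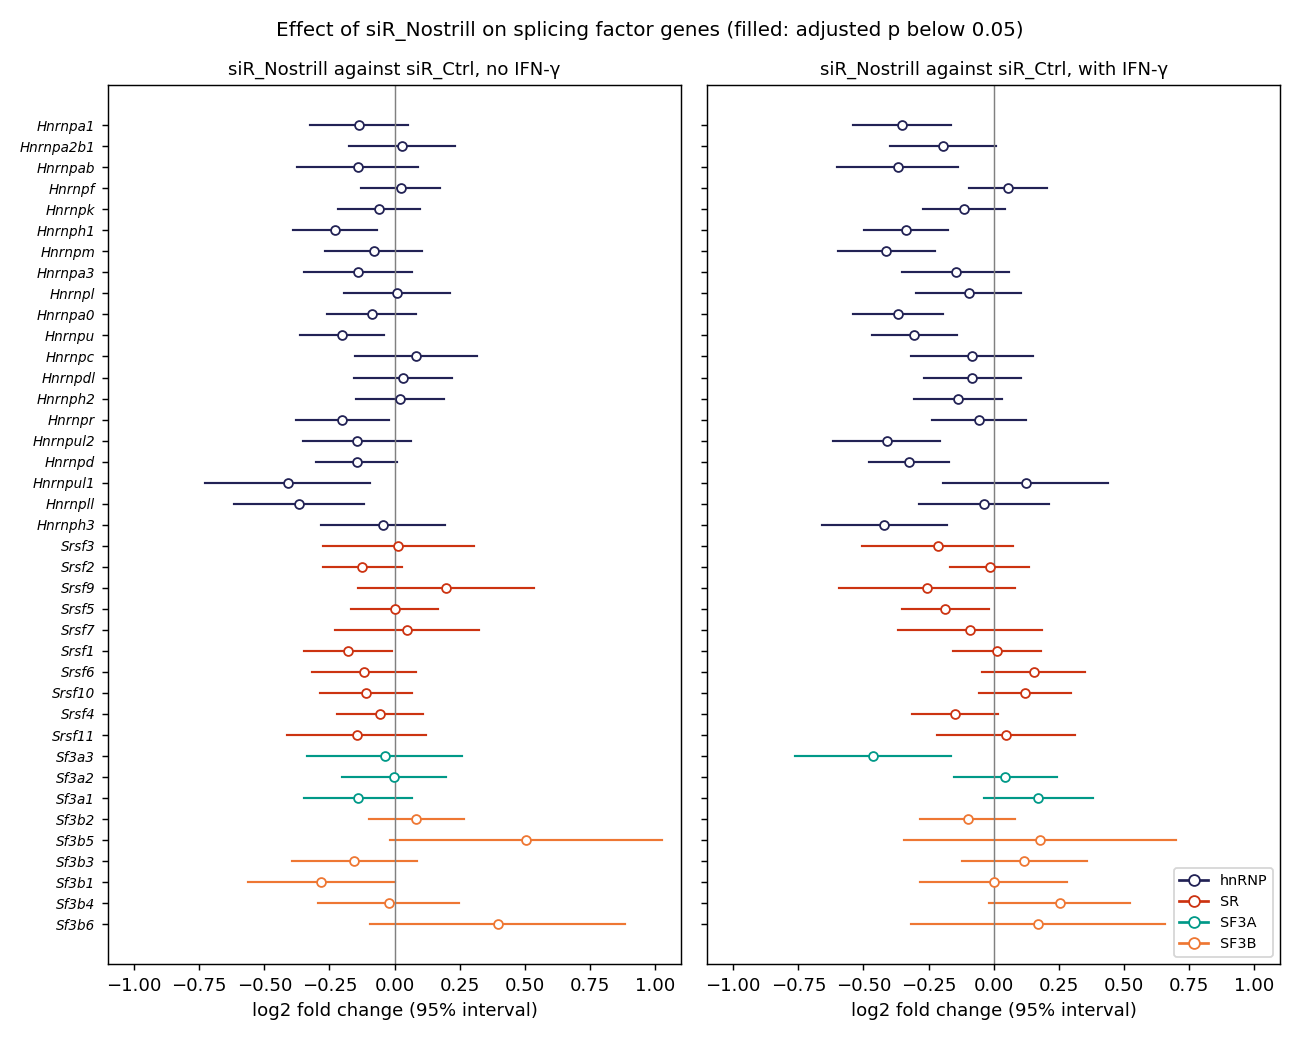
Log2 fold change of siR_Nostrill against siR_Ctrl for the 39 genes tested (points, with 95% intervals), without IFN-γ on the left and with IFN-γ on the right, coloured by class. No point is filled, since none passed the adjusted threshold, and with IFN-γ 18 of the 20 hnRNP points lie below 0.

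Averaged over both IFN-γ states, which uses all 12 libraries, Hnrnph1, Hnrnpu and Hnrnpd were lower in siR_Nostrill cells in edgeR. limma on log2(FPKM + 1) called Hnrnpd and Hnrnpm and neither of the other two (2.49% of its 11095 genes called), and on log2(FPKM + 0.1) Hnrnpm alone. The 3 calls of edgeR compare with 1% of all genes called lower and 2.16% called in either direction. Hnrnph1 had the siR_Nostrill values given above and 284, 241 and 272 FPKM in siR_Ctrl + IFN-γ against 216, 224 and 214 FPKM in siR_Nostrill + IFN-γ cells. In both states every siR_Nostrill library of Hnrnph1 was below every siR_Ctrl library, and the averaged log2 fold change was -0.28 (SE 0.0519, adjusted p = 0.0217, edgeR). For Hnrnpu the libraries with IFN-γ had 160.2, 141 and 160.4 FPKM in siR_Ctrl and 133, 134 and 123 FPKM in siR_Nostrill cells, again without overlap in FPKM, although its value without IFN-γ turned to 0.018 when a trend with gene length was removed. The averaged value was -0.25 (SE 0.0523, adjusted p = 0.0354, edgeR), a call that the fit with the replicate block lost. Hnrnpd, given above, also did not overlap in FPKM in either state, although its sign without IFN-γ turned when a trend with gene length was removed, and its averaged value was -0.24 (SE 0.0499, adjusted p = 0.0383, edgeR). At an unadjusted p below 0.05, 12 of the 39 were lower (30.8%) and 0 higher, against 8.21% and 8.34% of all genes, and 11 of the 12 were hnRNP genes. Of the 20 hnRNP genes, 19 were below 0, and the median was -0.17 against -0.011 over all genes. When each library was left out in turn, Hnrnph1 was called in 5 of 12 fits (those leaving out replicate 1 or 3 of siR_Ctrl, 2 or 3 of siR_Ctrl + IFN-γ, or 3 of siR_Nostrill), Hnrnpu in 1 (without siR_Ctrl + IFN-γ replicate 2) and Hnrnpd in 1 (without siR_Ctrl replicate 1), with log2 fold changes from -0.298 to -0.261, from -0.265 to -0.234 and from -0.254 to -0.216.

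Hnrnpd stood lowest where both treatments were combined. Its means were 60.7 ± 0.682 FPKM in siR_Ctrl, 53.9 ± 1.01 in siR_Ctrl + IFN-γ, 53.9 ± 1.77 in siR_Nostrill and 44.9 ± 2.39 FPKM with both treatments (SD, n = 3 each). Hnrnph1 and Hnrnpu were ordered in the same way, with their highest mean in siR_Ctrl and their lowest in siR_Nostrill + IFN-γ cells. The gene ranges on GRCm38.p6 are chr5:99955935-99979130 for Hnrnpd, chr11:50375257-50386528 for Hnrnph1, chr1:178321108-178338891 for Hnrnpu and chrX:134601179-134607060 for Hnrnph2, and their values are sums over all transcripts, so nothing was measured of single exons or isoforms.

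**Figure D4:**
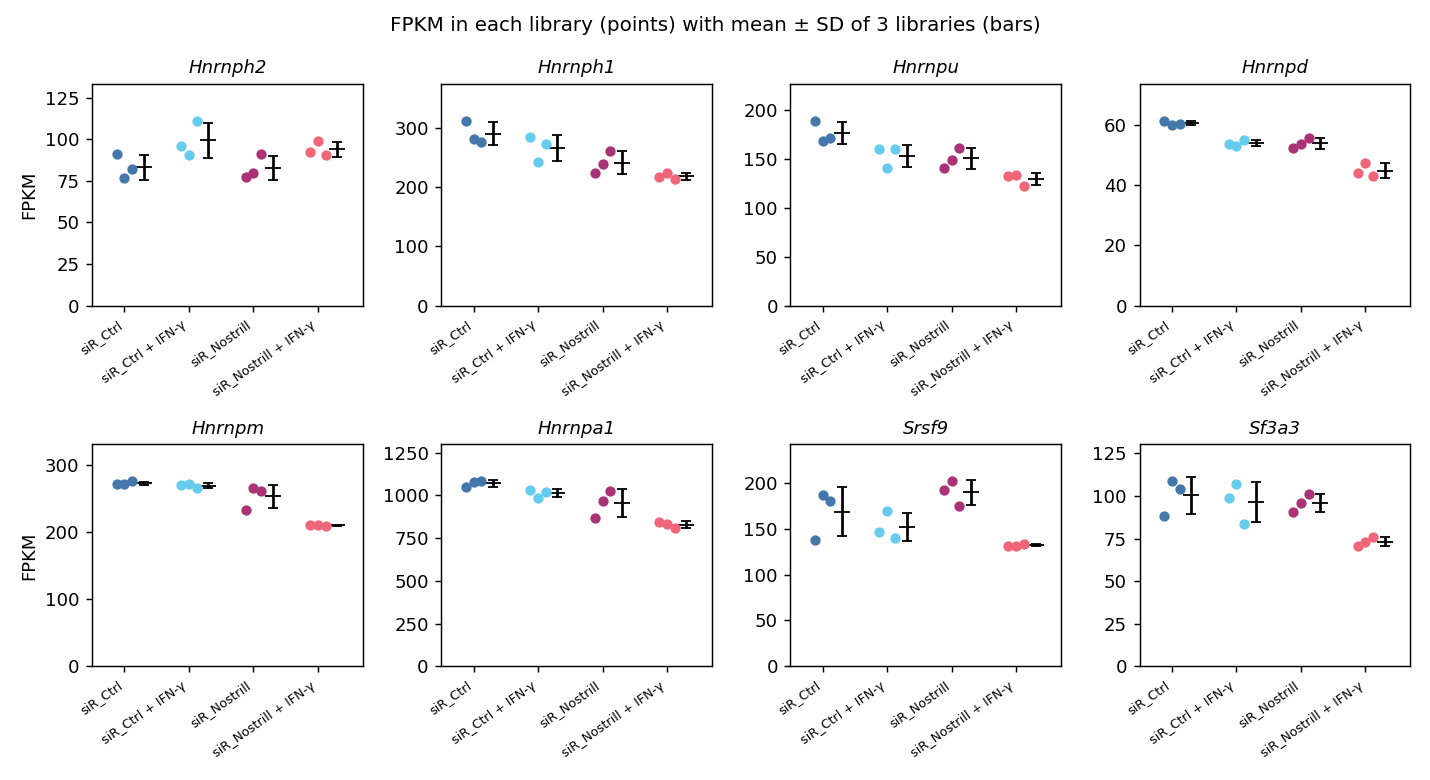
FPKM of 8 splicing factor genes in each of the 3 libraries per condition (points), with mean ± SD of the condition (bars), on axes that start at 0. Hnrnpm, Hnrnpa1, Srsf9 and Sf3a3 have their lowest mean in siR_Nostrill + IFN-γ cells, and Hnrnph2 has higher means with IFN-γ in both siRNA conditions.

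Whether siR_Nostrill changed the effect of IFN-γ was tested as the interaction. No splicing factor passed (0 of 39 in edgeR, with 2 higher and 4 lower at an unadjusted p below 0.05), nor did any of the 11900 genes (0% called, with 4.72% higher and 6.01% lower unadjusted). DESeq2's Wald test and limma on log2(FPKM + 1) called 0 of these genes as well. The 4 lower genes were Hnrnpm (-0.33), Hnrnpa0 (-0.28), Hnrnph3 (-0.38) and Sf3a3 (-0.43), and the 2 higher were Hnrnpul1 (0.53) and Sf3a1 (0.31), all log2 values. With the length trend removed they were -0.37, -0.35, -0.18 and -0.30, and 0.33 and -0.027, so that of Sf3a1 changed sign. The interval for Hnrnph2 was -0.40 to 0.080, so a difference of its IFN-γ response between the siRNAs was not detected at this precision.

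For SR protein genes, siR_Nostrill averaged over both states gave 0 of 10 that passed and 0 had an unadjusted p below 0.05 in edgeR, and the median was -0.060. With the length trend removed, 0 of the 10 passed, 4 were lower at an unadjusted p below 0.05, 9 were below 0 and the median was -0.090, where 15.7% of all genes were lower unadjusted and 6.5% were called lower. Srsf5 had -0.19 (-0.35 to -0.020, adjusted p = 0.287, edgeR) with IFN-γ and 0.00033 (-0.17 to 0.17) without, which became -0.18 and -0.15 with the length trend removed. Srsf1 had -0.18 (-0.35 to -0.011) without IFN-γ and 0.012 (-0.16 to 0.18) with it, and both turned, to 0.056 and -0.13, in that fit. Srsf2 and Srsf3 had -0.016 (-0.17 to 0.13) and -0.21 (-0.50 to 0.075) with IFN-γ. The difference between the classes was not tested. Of the 9 SF3A and SF3B genes, Sf3a3 alone had an unadjusted p below 0.05 for the averaged siRNA effect (-0.25, adjusted p = 0.212, edgeR), and Sf3b1 had -0.14 (-0.34 to 0.058).

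Summed over the class, hnRNP genes took 1.202%, 1.195% and 1.18% of reads in siR_Ctrl and 1.02%, 1.03% and 0.979% in siR_Nostrill + IFN-γ libraries. In between lay siR_Ctrl + IFN-γ with 1.16%, 1.08% and 1.14% and siR_Nostrill with 1.06%, 1.09% and 1.15%. The siR_Nostrill + IFN-γ libraries had the lowest 3 read shares of the 12, but not the lowest shares of TPM. Of TPM, which is scaled for transcript length, hnRNP genes took 0.939%, 0.7196% and 0.758% in siR_Ctrl, 0.749%, 0.607% and 0.807% in siR_Ctrl + IFN-γ, 0.612%, 0.617% and 0.761% in siR_Nostrill and 0.705%, 0.684% and 0.614% in siR_Nostrill + IFN-γ libraries. On that scale the siR_Nostrill + IFN-γ libraries were below those of siR_Ctrl but overlapped with both other conditions, and the lowest library was siR_Ctrl + IFN-γ replicate 2. SR genes took 0.2305% to 0.2645% of reads over all libraries, SF3A genes 0.0293% to 0.0336% and SF3B genes 0.144% to 0.186%.

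**Figure D5:**
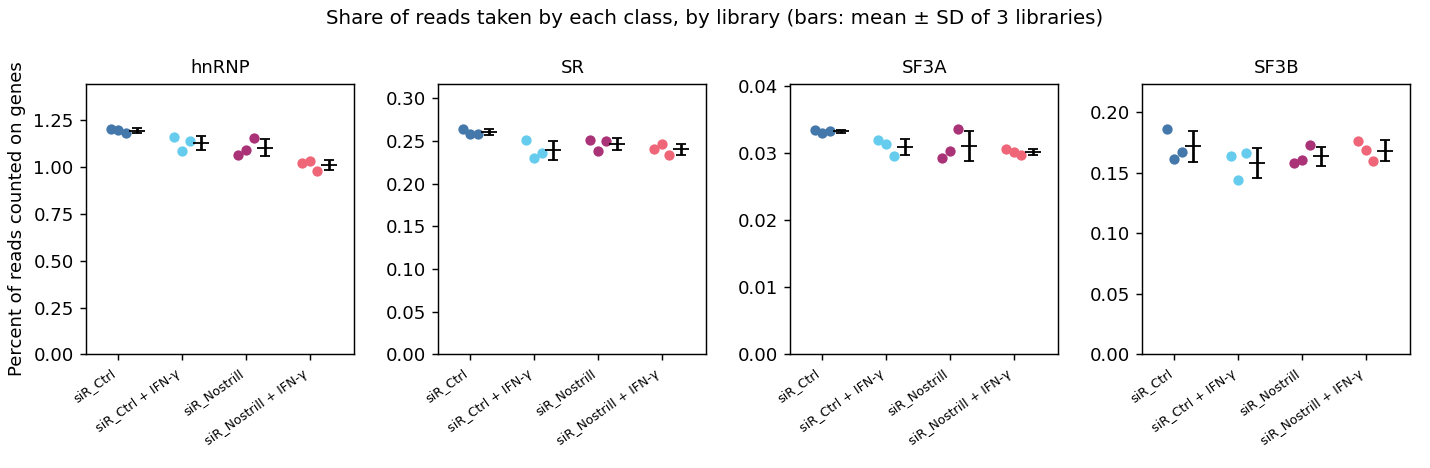
Percent of all reads counted on genes that fell on the 21 hnRNP, 10 SR, 3 SF3A and 6 SF3B genes, in each of the 3 libraries per condition (points) with mean ± SD (bars), on axes that start at 0. The hnRNP share is 1.18% to 1.202% in siR_Ctrl and 0.979% to 1.03% in siR_Nostrill + IFN-γ libraries.

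Libraries of one condition deviated from each other with gene length, and within the groups the Spearman correlations over genes lay between -0.822 and 0.845, and fold changes between conditions did so too. Across the 39 splicing factors the correlation of fold change with effective length was -0.62 for siR_Nostrill without IFN-γ and 0.11 with IFN-γ, against -0.65 and 0.26 over all genes. The median effective length of the 39 genes was 2349 bases, against 2671 over all genes. Removing a smooth trend with length from each library changed the number of calls. Among the 39 genes it turned the correlation rather than bringing it to 0. For siR_Nostrill the correlation became 0.307 without IFN-γ and -0.0901 with it, against 0.00415 and 0.00134 over all genes. For IFN-γ in siR_Ctrl cells it went from -0.499 to 0.293, against -0.0144 over all genes after the removal. With IFN-γ present, 9 of the 39 genes were then lower in siR_Nostrill cells (Hnrnpa0, Hnrnpa1, Hnrnpab, Hnrnph1, Hnrnph3, Hnrnpm, Hnrnpul2, Sf3a3 and Srsf9) and 0 higher, against 7.09% and 2.73% of all genes, and the hnRNP median was -0.23 against -0.068 over all genes. Hnrnpm then had -0.47 (adjusted p = 0.00497) and Hnrnpa0 -0.43 (adjusted p = 0.00865, both edgeR). Without IFN-γ, Hnrnph1 (-0.29), Hnrnpll (-0.32) and Hnrnpul1 (-0.30) were called lower, against 1.49% of all genes. For the averaged siRNA effect Hnrnph1 kept its call at -0.33 (adjusted p = 0.00103, edgeR), while Hnrnpu (-0.22, adjusted p = 0.195) and Hnrnpd (-0.18, adjusted p = 0.493, both edgeR) lost theirs. The IFN-γ call of Hnrnph2 in siR_Ctrl cells remained, at 0.38 (adjusted p = 0.00202, edgeR), and that of Hnrnpd in siR_Nostrill cells was lost at -0.55 (adjusted p = 0.109, edgeR). The SE of Hnrnpd in that last comparison was larger after the removal, at 0.216. The direction of Hnrnpd, which was lower in each simple comparison before the removal, turned in 2 of them. Whether the removal itself produced these changes was not tested. The call of Hnrnpd for IFN-γ averaged over both siRNAs was lost as well, at -0.23 (adjusted p = 0.376, edgeR), and Srsf9 was called there instead. Hnrnpd became 0.14 (adjusted p = 0.780) in place of -0.14 for siR_Nostrill without IFN-γ, and 0.10 (adjusted p = 0.842, both edgeR) in place of -0.10 for IFN-γ in siR_Ctrl cells.

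The rest of the spliceosome was followed with a list of 77 genes, of which 75 were tested. For siR_Nostrill with IFN-γ, 1 was lower and 0 higher at the adjusted threshold, and 16 were lower and 3 higher at an unadjusted p below 0.05, with a median of -0.083. Over all genes 0.429% were called, and 7.67% were lower and 6.87% higher unadjusted. With the length trend removed, 13 of the 75 were called lower and 1 higher, against 7.09% and 2.73% of all genes. The called gene was Ddx23, the helicase that releases U1 from the splice site, with means of 105 ± 6.64 FPKM in siR_Ctrl and 76.6 ± 2.41 FPKM in siR_Nostrill cells given IFN-γ (± SD, n = 3 each) and a log2 fold change of -0.51 (adjusted p = 0.0171, edgeR). Of the 8 genes of the Prp19 complex, which activates the assembled spliceosome, 4 were lower at an unadjusted p below 0.05 (7.67% of all genes were) and 0 passed, while 4 of the 8 were called lower once the length trend was removed. The 7 SR protein kinases had 0 of either kind, and 2 were lower unadjusted once the length trend was removed. In that fit 2334 of all 11900 genes were lower unadjusted. For siR_Nostrill without IFN-γ, 0 of the 75 passed in edgeR, with 4 lower and 1 higher unadjusted, against 0.218%, 7.61% and 6.19% of all genes. For IFN-γ in siR_Nostrill cells, Ddx23 (-0.31) and Prpf6 (-0.45), a U5 scaffold protein gene, were lower and Rbfox2 (0.74), a regulator of alternative exons, was higher, with adjusted p of 0.0217, 0.0421 and 0.0497 from edgeR. These 3 of 75 compare with 6.78% of all genes. With the length trend removed, 5 of the 75 were called higher and 5 lower, where 14.6% of all genes were called. In siR_Ctrl cells IFN-γ gave 0 calls in edgeR among the 75 genes, with 1 higher and 1 lower unadjusted, and 5.45% of all genes were called.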

How the data were processed

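RNA of IEC4.1 cells in 4 conditions of 3 libraries was sequenced from oligo(dT)-selected mRNA, described in the methods as biological triplicates. HISAT2 and Bowtie2 served the authors for alignment to GRCm38.p6, and they deposited an estimated count for each gene and library, without normalization, together with FPKM and TPM values. No source used here names the counting tool. FPKM as deposited by the authors allows for transcript length and for the mapped reads of the library, and TPM as deposited served only to set class sums beside those of reads. Estimated counts (90.6% to 91.6% of a library's genes had whole values) were rounded, and edgeR 4.0.16 in R 4.3.3 tested them by quasi-likelihood with TMM scaling. A single fit held the 12 libraries after edgeR's standard low-count filter, and p-values were adjusted over 11900 genes by the Benjamini-Hochberg method with a threshold of 0.05. Alternatives were DESeq2 1.42.0, its size factors in edgeR, no filter or a filter at a mean of 5 CPM, fits of the compared groups alone, a block for the replicate number, limma 3.58.1 on log2(FPKM + 1) or log2(FPKM + 0.1), removal of a length trend (lowess, span 0.3, per library) and each library left out. Effective lengths were derived from counts and FPKM. The code was tested on simulated counts after a first run on the data.

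The genes and lists were chosen with earlier results of these data known, as was the removal of the length trend. Values in every library were given for genes called by edgeR in any comparison, the 2 highest and 2 lowest fold changes of each simple comparison with a mean log2 CPM above 1, the most and least abundant hnRNP and SR genes (ranges for some), and 9 chosen factors, among them Sf3b1, Hnrnpk and Srsf1. Hnrnpm, Hnrnpa0 and Hnrnpul2, and other genes named for an unadjusted p below 0.05, were added after their values were seen. Intervals are 95% intervals of the edgeR fit. Promoter sequences came from RefSeq. One gene of the IFN-γ check list is not reported here.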

Additional observations from a re-analysis of the deposited data

How the results depend on the processing

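These genes were abundant, and the 3 libraries per condition limit the precision. The number of splicing factors called moved with the setting. For IFN-γ in siR_Ctrl cells it was 0 in place of 1 with only the groups compared (2.91% of all genes tested were called). It was also 0 with the replicate block (5.41%) and with limma on either FPKM scale (4.76% on each). For IFN-γ in siR_Nostrill cells it was 10 with DESeq2's Wald test, 0 without a filter on low counts, 8 with only the groups compared, 2 with the replicate block, 3 with limma on log2(FPKM + 1) and 6 with the length trend removed, in place of 1, while these settings called 10.5%, 4.86%, 17%, 7.92%, 7.41% and 14.6% of all genes tested. For siR_Nostrill without IFN-γ it was 2 with DESeq2 (2.56% of all genes) and 3 with the length trend removed (2.64%), and with IFN-γ it was 10 with DESeq2 (5.46%), 3 with a mean of at least 5 CPM (1.06%), 1 with limma on log2(FPKM + 1) (0.883%) and 9 with the length trend removed (9.82%), in place of 0 each. For IFN-γ averaged over siRNAs it was 5 with DESeq2 (11.1%), 1 without a filter (6.92%) and 3 with DESeq2's size factors, with a mean of at least 5 CPM and with limma on either FPKM scale, (9.2% to 9.59%), in place of 2, and both limma fits lost Hnrnph2 (adjusted p = 0.0952 and 0.108) and called Hnrnpab, Hnrnpd and Srsf9. For siR_Nostrill averaged over IFN-γ states it was, in place of 3, 8 with DESeq2 (6.65%) and 1 without a filter (1.12%). It was 5 with a mean of at least 5 CPM (3.06%) and 2 with the replicate block (1.54%). With limma it was 2 on log2(FPKM + 1) (2.49%) and 1 on log2(FPKM + 0.1) (2.27%). With the length trend removed it was 9, 8 lower and Sf3b5 higher (10.3%). The cause was not tested. Leaving out each library in turn gave 0 to 1 calls for IFN-γ in siR_Ctrl cells, 0 to 4 in siR_Nostrill cells, 1 to 4 averaged, 0 to 3 for the averaged siRNA effect, and 0 throughout for siR_Nostrill without IFN-γ, with IFN-γ and the interaction. Of all genes, those fits called 4.07% to 4.9%, 4.08% to 9.47%, 7.35% to 11.2% and 0.69% to 2.11% for the first 4 in that order. For the last 3 they called 0% to 0.308%, 0% to 0.599% and 0%.

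The IFN-γ fold change of Sf3b5 in siR_Ctrl cells ranged from -0.0233 to 0.3822 over the fits that leave out a library. With the length trend removed, siR_Nostrill without IFN-γ gave 0.056 for Srsf1, 0.018 for Hnrnpu and 0.0048 for Sf3b1, and the interaction gave -0.027 for Sf3a1. Among the 39 genes the removal turned the sign of 13 values for siR_Nostrill without IFN-γ (Hnrnpd among them), 3 with IFN-γ, 11 for IFN-γ in siR_Ctrl cells (Hnrnpd among them), 6 in siR_Nostrill cells, 6 for the interaction and 4 for each averaged effect, and none of these had been called before it. It moved the median of all genes by less than 0.1 on the log2 scale in each comparison.

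Same-numbered libraries did not deviate together throughout. Of 18 same-numbered pairs, 8 had a correlation over 0.1 and 8 had one below -0.1 (range -0.495 to 0.725). Of the 12 libraries, 5 correlated best with their own number. The length trend was not removed for these correlations, so they cannot show whether same-numbered cultures were handled together. With the replicate block, 0, 2, 0, 0 and 0 splicing factors were called for IFN-γ in siR_Ctrl cells, IFN-γ in siR_Nostrill cells, siR_Nostrill without IFN-γ, with IFN-γ and the interaction, and 2 for each averaged effect. Of all genes, that fit called 5.41%, 7.92%, 0.151%, 0.269% and 0% in the same order. It called 9.31% for IFN-γ averaged over siRNAs and 1.54% for the averaged siRNA effect.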
